A study of Mus musculus with 93 samples.

Results

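The 9 embryo libraries were selected by their labels, 5 of GFP+ cells and 4 of RFP+ cells, out of 93 libraries in the series, the others coming from stem cell spheroids. Embryos carried Hcn4GFP, Tbx1Cre and Ai9 together, so both populations came from the same genotype and no untreated or unlabelled control was used here. GFP was expressed from the Hcn4 reporter at the time of sorting, whereas RFP was a permanent label left by Tbx1-Cre recombination of Ai9, so an RFP+ cell need not transcribe Tbx1 when sorted. The titles name E8.5 and the protocol names E7.75. Each library was made from 10 sorted cells in 1 well of a plate, and no label assigned a well to an embryo. Therefore n counts wells, and p-values measure only the spread between wells, which may be technical.

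The heart is built from a pair of progenitor populations. First heart field cells form the early tube and much of the left ventricle and switch on the contractile machinery early. Second heart field cells lie in pharyngeal mesoderm, proliferate for longer and add the right ventricle and outflow tract, and Tbx1 is a transcription factor of their anterior part. Hcn4, a pacemaker channel, is transiently expressed in first heart field progenitors. The comparison addresses how the transcriptomes of these populations differ in the embryo.

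Values below are counts per 1e6 reads (CPM) with edgeR's TMM scaling, listed for GFP+ wells A12, B12, C12, D12 and E12 and then for RFP+ wells F12, G11, G12 and H11. Log2 fold changes are RFP+ minus GFP+ wells, and a gene was called at an adjusted p under 0.1. Hcn4 had 1.06, 33.02, 6.61, 32.1 and 1.12 CPM in the GFP+ wells and 0, 0, 0 and 1.4 CPM in the RFP+ wells. Every GFP+ well held Hcn4 reads, but A12 and E12 were at about the level of RFP+ well H11, and the 2-sided exact permutation test gave p = 0.0714 (n = 5 and 4). Tbx1 was at 0 in all GFP+ wells and at 3.59, 3.44, 0 and 8.43 CPM in the RFP+ wells (exact permutation p = 0.0476). RFP+ well G12 thus carried the lineage label without a Tbx1 read. Both genes had too few reads for the filter of the edgeR test.

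The other markers separated the populations. Tbx5, a transcription factor of the first heart field, had 60.3, 121, 235, 321 and 159 CPM in GFP+ wells and 1.44, 1.38, 0 and 0 CPM in RFP+ wells (log2 fold change -7.8, SE 1.15, adjusted p = 0.00122). Mef2c, a myogenic factor used by both heart fields, had 1511, 661, 996, 1639 and 1365 CPM against 111, 93.7, 154 and 101 CPM (log2 fold change -3.43, SE 0.32, adjusted p = 4.08e-05). The homeobox gene Six2 had 2.11, 0, 0, 0 and 0 CPM against 12.2, 9.65, 14.1 and 22.5 CPM (log2 fold change 4.98, SE 1.42, adjusted p = 0.0498). Groups did not overlap for these 3 genes, although the Six2 call was lost without any 1 of F12, G11 and H11 (adjusted p up to 0.117). Ebf2, an early B-cell factor family member, was at 0 in every GFP+ well and at 15.8, 37.2, 131 and 49.2 CPM in RFP+ wells, at least 22.1-fold higher against a floor of 3 counts per library (adjusted p = 0.0167) and 12.9-fold without G12. Such bounds, here and below, cover counting error only. Isl1, a factor widely used to mark the second heart field, had 161, 38.6, 226, 259 and 67.1 CPM against 182, 139, 95.1 and 148 CPM (log2 fold change -0.09, SE 0.59, adjusted p = 0.987). Both populations thus held Isl1 RNA at overlapping levels.

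The wells differed in complexity. Totals were 712732 to 2525460 reads in GFP+ and 1246546 to 1479957 in RFP+ wells. A GFP+ well held reads of 6189 to 8302 genes (mean 7130 ± 855, SD) and an RFP+ well of 10263 to 13052 (mean 11945 ± 1192; exact permutation p = 0.00794, the smallest that 126 splits allow). After thinning to 712732 reads the means were 6922 and 11402. Correlations of log2 CPM across genes were 0.672 to 0.764 between GFP+ wells, 0.904 to 0.956 between RFP+ wells and 0.701 to 0.805 between populations. The median gene had an SD of 1.96 on the log2(CPM + 2) scale among GFP+ wells and 0.48 among RFP+ wells. The part of this difference in the results below was not tested.

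Markers of other cell types had reads more often on the RFP+ side. There more genes of any kind were read, 10263 to 13052 per well against 6189 to 8302 in GFP+ wells. The globin gene Hba-x had 385 CPM in F12 and none in the other RFP+ wells, and 0.429 CPM in B12 was its highest GFP+ level. The epithelial adhesion gene Epcam had 170.3, 62.7, 19.02 and 0.702 CPM in RFP+ wells and the tight junction gene Cldn6 459, 210.1, 325 and 6.32 CPM, and neither had a read in a GFP+ well. Well H11 was thus almost free of both. Of 12 epithelial markers, 3 had a read in any GFP+ well and 11 in any RFP+ well, with summed levels of 354 to 482 and 254 to 948 CPM, to which keratins contributed in both populations. The 3 tested markers were keratins and did not all lie on the RFP+ side. Krt8 was called GFP+ (log2 fold change -1.41), and Krt19 (-2.94) and Krt18 (0.73) were not called. Epcam and Cldn6, low in H11, did not pass the filter. The epithelial list gave 0 to 7 RFP+ calls as 1 well was left out and up to 8 in other settings. DESeq2 called Cldn6 (adjusted p = 2.72e-08) and Epcam (1.03e-04) RFP+, as it did 1354 of 10784 genes with an adjusted p. For endoderm, 3 and 14 of 18 markers had a read in any GFP+ and any RFP+ well, with summed levels of 0 to 26.4 and 126 to 526 CPM. For blood they were 3 and 6 of 14, and F12 alone reached 1143 CPM. Neural and neural crest markers had reads for 1 and 14 of 16 genes. The part of such cells in the results was not tested.

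**Figure D1:**
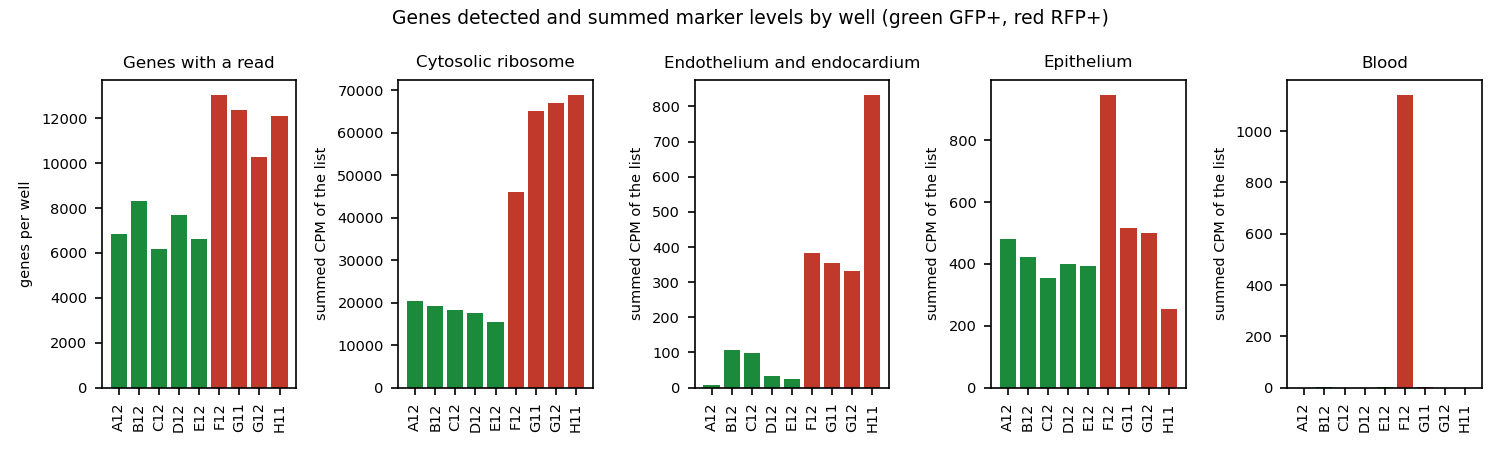
Bars give, for each embryo well (green GFP+, red RFP+), the number of genes with a read and the summed CPM of the lists for the cytosolic ribosome, endothelium and endocardium, epithelium and blood. RFP+ wells held 10263 to 13052 detected genes against 6189 to 8302. F12 had the highest blood sum (1143 CPM, with B12 next at 2.57 CPM), and H11 had the highest endothelial sum (834 CPM) and the lowest epithelial one (254 CPM).

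Endothelial genes followed the same side. Emcn, an endothelial sialomucin, was at 0 in GFP+ wells and at 48.9, 33.8, 36.4 and 49.2 CPM in RFP+ wells, at least 15.98-fold higher (adjusted p = 0.0153). Kdr, the VEGF receptor of endothelial and early mesodermal progenitors, had 0, 14.6, 0, 16.5 and 0 CPM against 34.5, 37.2, 0.827 and 144 CPM and was not called (log2 fold change 3.07, SE 1.83, adjusted p = 0.516). Of 20 endothelial and endocardial genes, 7 passed the filter, which genes at 0 in GFP+ wells could do only through RFP+ wells, and 4 were called RFP+ against 6.21% of all genes tested (Fli1, Egfl7, Emcn and Flt1), with a median log2 fold change of 3.44. Summed levels were 6.34 to 106 CPM in GFP+ and 333 to 834 CPM in RFP+ wells. The list gave 2 calls without D12, 1 without H11 and 6 without G12. The Egfl7 call was lost without any 1 of A12, D12, F12, G11, G12 and H11 (adjusted p up to 0.346), and that of Fli1 without any 1 of G11 and H11 (up to 0.114). Fewer cells of a type and less RNA per cell cannot be told apart in such pools.

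Of 24514 genes in the table, 15111 had a read in an embryo well and 8503 passed the filter. The call was made for 858 genes, 10.1% of those tested, 330 (3.88%) higher in GFP+ and 528 (6.21%) higher in RFP+ wells. An unadjusted p under 0.05 was reached by 1377. Without G11 or H11 the GFP+ calls fell to 214 and 211. The median log2 fold change of all genes tested was 0.09. The calls differed in kind. Reads were present in all 5 GFP+ wells for 319 of the 330 genes called GFP+, and 3 of the 330 had no read in any RFP+ well. Of the 528 genes called RFP+, 137 had no read in any GFP+ well and 90 had reads in 1. Those 137 genes were at least 3.34- to 31.6-fold higher (median 8.52) as far as counting error goes. Single GFP+ wells also lacked reads of genes high in another GFP+ well, such as Fzd3 at 0 in D12 and 501 CPM in E12. The filter required enough reads in at least 4 wells. A gene read only in RFP+ wells entered only where it was high there, and counts over the members that passed are descriptions.

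Contractile genes were higher in GFP+ wells throughout the sarcomere. The 3 lists for the thin filament, the thick filament and the Z-disc with titin held 43 genes, of which 41 had reads, 37 were tested, 32 were called GFP+ and none RFP+, against 3.88% of all genes called GFP+. For 29 of the 37 the populations did not overlap (3.78% of all genes tested). Myl2, Tpm2, Des, Tnnt1 and Flnc were not called. The list medians were -4.29 (thin filament, 11 tested), -3.95 (thick filament, 9) and -4.82 (Z-disc and titin, 17). In terms of summed levels, thin filament genes had 16099 to 42534 CPM in GFP+ wells and 1721 to 2204 CPM in RFP+ wells.

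Tnnt2, cardiac troponin T, had 2133, 2374, 1815, 2415 and 1921 CPM in GFP+ wells and 107, 91.6, 53.7 and 136 CPM in RFP+ wells (log2 fold change -4.45, SE 0.29, adjusted p = 5.28e-06). It varied little across GFP+ wells. Actc1, the cardiac actin, was at 10994, 21992, 7653, 12218 and 19687 CPM against 548, 338, 278 and 315 CPM (log2 fold change -5.29, SE 0.36, adjusted p = 5.28e-06). RFP+ wells therefore held Actc1 reads too, at a low and even level. Tnni3, the adult cardiac troponin I, had 231, 347, 39.7, 278 and 239 CPM against 0, 0, 4.13 and 1.4 CPM (log2 fold change -7.31, SE 1.18, adjusted p = 0.00223), with C12 well under the other GFP+ wells. Myh6, the alpha myosin heavy chain, had 551, 1051, 627, 849 and 701 CPM against 2.16, 5.51, 3.31 and 9.13 CPM (log2 fold change -7.2, SE 0.49, adjusted p = 5.28e-06). Myl7, the atrial regulatory light chain, had 5270.2, 11882, 3918, 7292 and 7401 CPM against 655, 373, 265 and 553 CPM (log2 fold change -3.95, SE 0.36, adjusted p = 3.69e-05). For these 5 genes the lowest GFP+ well lay above the highest RFP+ well.

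GFP+ wells were not uniform in other contractile genes. Actn2, the Z-disc actinin, had 128, 1366, 256, 124 and 1320.5 CPM against 8.62, 1.38, 0 and 5.62 CPM (log2 fold change -7.31, SE 1.14, adjusted p = 0.00176), so B12 and E12 stood above the other 3 GFP+ wells. The same wells were highest for Acta1, skeletal actin, at 611, 2027, 1.32, 339.8 and 2003 CPM against 57.5, 62.7, 27.3 and 22.5 CPM (log2 fold change -4.55, SE 1.17, adjusted p = 0.0272). They were also highest for Nppa, the atrial natriuretic peptide, at 0, 759.6, 33.1, 0 and 453 CPM against 0, 0, 0.827 and 0 CPM. Nppa was below the filter, and without the filter its log2 fold change was -9.74 (adjusted p = 0.00493). Myh7, the beta myosin heavy chain, was lowest in A12 and overlapped, at 32.8, 759, 315, 201 and 666 CPM against 101, 112, 9.92 and 57.6 CPM (log2 fold change -2.49, SE 0.83, adjusted p = 0.0996). Its call was lost without any 1 of B12, C12, E12, F12, G11, G12 and H11 (adjusted p up to 0.274), and that of Acta1 without H11 (0.110). Acta1, Myh7 and Nppa were named after their values had been seen.

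Some promoters of these genes held a known regulatory motif. The CArG box, bound by serum response factor (SRF), was searched on both strands in the 250 bases before each RefSeq start (GRCm38.p6). It occurred in 7 of the 27 called sarcomere genes found in the promoter table (25.9%; 32 were called) and in 1.62% of all 27025 genes there. Its occurrences in these 7 genes are shown because the sarcomere lists had medians of -4.82 to -3.95, with the box in capitals and 25 bases on either side, 5′ to 3′ on the strand of the gene:
Actc1: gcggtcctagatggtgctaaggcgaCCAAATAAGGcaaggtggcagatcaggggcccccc
Acta1: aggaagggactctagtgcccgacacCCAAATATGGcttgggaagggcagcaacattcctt
Myl7: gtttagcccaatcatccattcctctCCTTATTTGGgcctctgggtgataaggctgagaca
Myl3: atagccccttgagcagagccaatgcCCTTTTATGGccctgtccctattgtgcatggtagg
Myom1: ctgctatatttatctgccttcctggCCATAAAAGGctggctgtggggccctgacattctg
Ldb3: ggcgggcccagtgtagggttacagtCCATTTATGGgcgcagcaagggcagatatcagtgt
Nebl: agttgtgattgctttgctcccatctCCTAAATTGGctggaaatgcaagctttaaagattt

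These windows lie at chr2:114052888-114052947 (Actc1, minus strand), chr8:123894814-123894873 (Acta1, minus), chr11:5898809-5898868 (Myl7, minus), chr9:110763568-110763627 (Myl3, plus), chr17:71019433-71019492 (Myom1, plus), chr14:34588682-34588741 (Ldb3, minus) and chr2:17462984-17463043 (Nebl, minus) of GRCm38.p6, each window lying before the RefSeq start it was taken from. The boxes started 35 to 162 bases before the start, that of Ldb3 nearest and that of Nebl farthest. Myl3, Ldb3 and Nebl are named here for these sequences. CATTCC, the core read by TEAD factors, was in 44.4% of the 27 genes and 14.4% of all genes. The letters AGATAA, read by zinc finger factors such as Gata4, were in 18.5% and 11.4%. Motifs on either strand counted. A match is a description of the letters and not a bound site, and the motifs were not looked for outside these windows.

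The tested calcium handling and channel genes moved the same way. Slc8a1, the sodium-calcium exchanger, had 305, 2145, 780.1, 956 and 1154 CPM against 14.4, 14.5, 17.4 and 9.13 CPM (log2 fold change -6.26, SE 0.56, adjusted p = 3.39e-05). Kcnj5, an inward rectifier potassium channel subunit, had 0, 296, 218, 30.2 and 244 CPM against 0.719, 0, 0 and 0 CPM (log2 fold change -9.18, SE 1.9, adjusted p = 0.0106) and was missing from A12. Of 23 calcium handling and channel genes, 22 had reads and 7 passed the filter. Those 7 were called GFP+ (4 without B12 or E12), against 3.88% of all genes tested. Atp2a2, the sarcoplasmic calcium pump, was among them (log2 fold change -2.95, SE 0.26, adjusted p = 2.46e-05). A gene near 0 in RFP+ wells, such as Kcnj5, could pass the filter only through GFP+ wells, so the count of calls is a description. Members under the filter had both signs in the fit without it, such as Pln (-4.38) and Cacna1g (2.92), neither called there. Bmp10, a ligand of trabecular myocardium, had 117, 99.1, 38.3, 81.5 and 81.7 CPM against 0, 7.58, 0 and 0 CPM (log2 fold change -5.38, SE 1.68, adjusted p = 0.0766). No GFP+ well overlapped with an RFP+ well, but the Bmp10 call was lost without any 1 of A12, B12, F12, G12 and H11 (adjusted p up to 0.204). Popdc2 and Vsnl1 of the chamber list were called GFP+ as well, and Gja1, connexin 43, was not (log2 fold change -0.12, SE 0.52, adjusted p = 0.978). The list for heart muscle energy gave 2 GFP+ calls in 13 genes tested (3.88% of all genes tested were), Lpl (lipoprotein lipase, log2 fold change -2.88, SE 0.68, adjusted p = 0.0163) and Cox6a2. Cox6a2, the muscle form of a cytochrome oxidase subunit, had no read in an RFP+ well and none in A12, at least 18.9-fold higher in GFP+ wells (12.5-fold without B12), and this call was lost without any 1 of F12, G11, G12 and H11 (adjusted p up to 0.164).

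Among 22 cardiac transcription factors, 16 were tested, 5 were called GFP+ (3.88% of all genes tested were) and none RFP+, with a median of -2.37. Tbx20, a T-box repressor required for chamber growth, had 825, 730.4, 356, 675 and 358 CPM against 6.47, 2.07, 0.827 and 4.92 CPM (log2 fold change -7.32, SE 0.61, adjusted p = 2.06e-05). Its lowest GFP+ level, in C12, was still far above every RFP+ well. Myocd, the SRF cofactor myocardin, had 904 ± 94.6 CPM in GFP+ wells and 59.8 ± 20.2 CPM in RFP+ wells (mean ± SD, n = 5 and 4; log2 fold change -3.91, SE 0.3, adjusted p = 1.19e-05). Gata4, a zinc finger activator, had 23.3, 160.0, 271, 78.3 and 180.2 CPM against 19.4, 5.51, 0 and 0 CPM (log2 fold change -4.49, SE 1.43, adjusted p = 0.0835). Its call was lost without any 1 of B12, C12, E12, G11, G12 and H11 (adjusted p up to 0.230). Tbx5 and Mef2c, described above, complete the 5. Nkx2-5, the homeobox factor of both fields, was below the filter with 21.1, 30.02, 0, 37.6 and 0 CPM against 0.719, 3.44, 4.13 and 1.4 CPM, so C12 and E12 had no read. Gata6 was not called (log2 fold change -2.08, SE 1.01, adjusted p = 0.351).

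**Figure D2:**
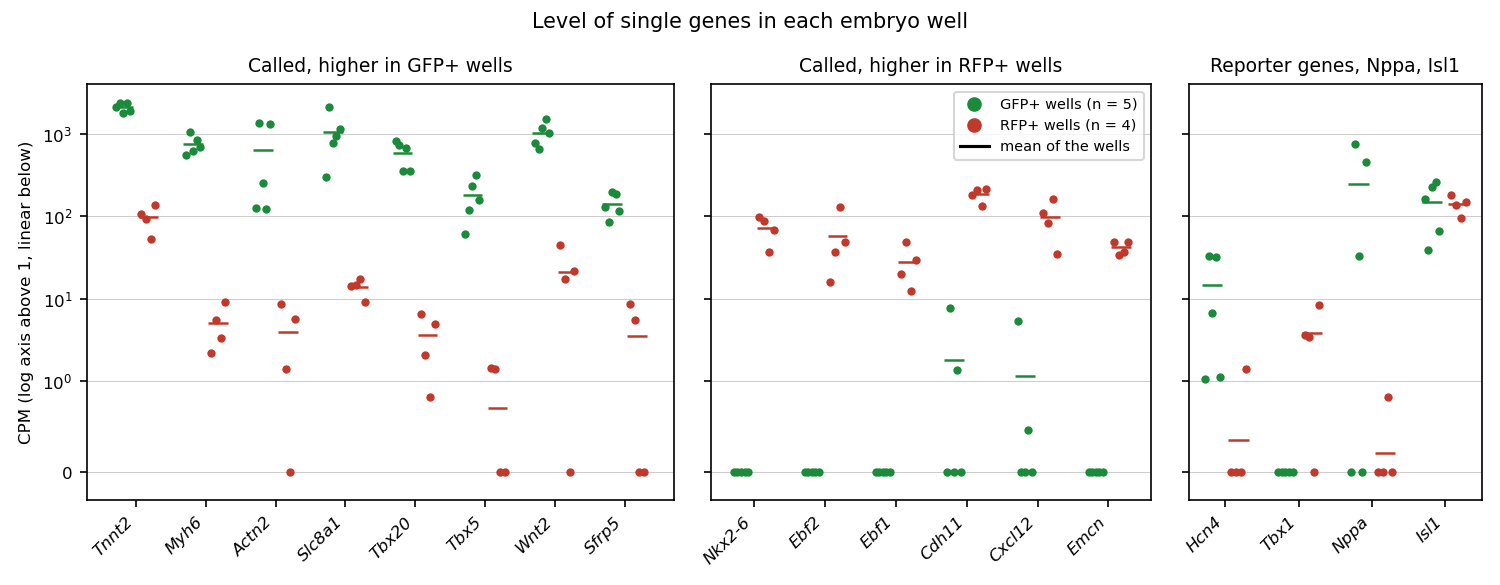
Points give CPM of single genes in each embryo well (green, 5 GFP+ wells; red, 4 RFP+ wells), with lines at the mean, on an axis that is logarithmic above 1 and linear below. The genes shown as higher in GFP+ wells had reads in every GFP+ well and also in some RFP+ wells. Of the 6 genes shown as higher in RFP+ wells, 4, among them Ebf1 and Emcn, were at 0 in all 5 GFP+ wells. Isl1 overlapped.

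On the RFP+ side stood transcription factors of pharyngeal and second heart field mesoderm. Of 39 such genes all had reads in RFP+ wells and 13 had none in GFP+ wells, 27 were tested, 8 were called RFP+ and none GFP+ (background 6.21%), with no overlap for 12 of the 27 (13.2% of all genes tested) and a median of 2.35. A fit of genes counted in every well held 5 members and called 1 of them GFP+ and 0 RFP+, with a median of -1.07. Summed levels of the list overlapped, at 619 to 1730 CPM in GFP+ and 1439 to 1738 CPM in RFP+ wells. Ebf1, of the same family as Ebf2, was at 0 in GFP+ wells and at 20.1, 48.2, 12.4 and 29.5 CPM in RFP+ wells, at least 10.5-fold higher (adjusted p = 0.0146). All 4 RFP+ wells carried Ebf1 and Ebf2. The list gave 5 calls without G11 or H11, and 1, with a median of 0.84, in the wells of plate column 12 alone (5 GFP+ and 2 RFP+ wells). In that last fit 216 of 9360 genes tested were called RFP+.

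Irx2 and Foxc2 were likewise at 0 in GFP+ wells and at least 6.2- and 7.34-fold higher in RFP+ wells. Six4 had 2.64 CPM in C12 only and 25.6 to 68.2 CPM in RFP+ wells (log2 fold change 6.36, SE 1.8, adjusted p = 0.0474), a call lost without any 1 of F12, G11 and H11 (adjusted p up to 0.135). Ebf2 and Six2, described above, were called too. Tcf21, a bHLH factor of branchial mesoderm, was not called (log2 fold change 2.72, SE 1.61, adjusted p = 0.516), as B12 and D12 held 44.6 and 15.6 CPM. Nkx2-6, a pharyngeal relative of Nkx2-5 outside the list, was at 0 in GFP+ wells and at 97.7, 87.5, 37.2 and 68.1 CPM in RFP+ wells, at least 27.6-fold higher (adjusted p = 0.0121). Hoxb1, an anterior Hox gene, was not called (log2 fold change 2.98, SE 1.81, adjusted p = 0.527), with 34.4 CPM in C12 and 42.2 to 64.8 CPM in RFP+ wells. Of 24 paraxial mesoderm and somite genes, 5 were tested and Meox1 was called, at 22.7 to 64.5 CPM in RFP+ wells and 0 in GFP+ wells (at least 14.03-fold higher, adjusted p = 0.0157).

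Signalling genes showed single differences and no pathway in which most tested members were called. Among ligands, Wnt2 had 780.4, 650.2, 1169, 1526 and 1024 CPM in GFP+ wells and 45.3, 17.2, 0 and 21.8 CPM in RFP+ wells (log2 fold change -5.6, SE 0.82, adjusted p = 0.00116), and it was the called member of 14 Wnt ligands and R-spondins, of which 2 were tested. Sfrp5, a secreted Wnt inhibitor of the first heart field, had 129, 85.8, 196, 188 and 118 CPM against 8.62, 5.51, 0 and 0 CPM (log2 fold change -5.3, SE 1.29, adjusted p = 0.0200). Axin2, a target of canonical Wnt signalling, was at 0 in GFP+ wells and at 10.1, 8.96, 13.2 and 14.04 CPM in RFP+ wells, at least 4.4-fold higher (adjusted p = 0.00829). Of 9 Wnt targets tested Axin2 was the called one (6.21% of all genes tested were called RFP+), and their median was 1.41. Ror1, a Wnt co-receptor, had 23.7 to 51.0 CPM in RFP+ wells and a single GFP+ well with reads, A12 at 1.06 CPM (log2 fold change 7.0, SE 1.64, adjusted p = 0.0163).

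Bmp4, a ligand that induces cardiac mesoderm, had 318, 132, 118, 200.2 and 163 CPM against 45.3, 84.1, 18.2 and 26.7 CPM (log2 fold change -2.09, SE 0.64, adjusted p = 0.0677). The groups did not overlap, but the call was lost without any 1 of A12, F12, G12 and H11 (adjusted p up to 0.220). Bmp4 and Bmp10 were the called members of 6 BMP ligands tested (3.88% of all genes tested were called GFP+), and Bmp2 was not called (log2 fold change -4.18, SE 1.84, adjusted p = 0.268). Of the Id genes, which answer to Bmp signals, Id2 and Id3 were called in opposite directions. Id2 had 1178, 1135, 1655, 1211 and 1636 CPM against 478, 683, 749.9 and 532 CPM (log2 fold change -1.16, SE 0.22, adjusted p = 0.00659). Id3 had 338, 50.6, 164, 342 and 266 CPM against 665, 936, 735 and 643 CPM (log2 fold change 1.68, SE 0.44, adjusted p = 0.0303), and its call was lost without G11 (adjusted p = 0.108) and with the length trend taken out.

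Retinoic acid carriers were higher in RFP+ wells. Crabp2, a cytoplasmic binding protein that delivers retinoic acid to its receptors, had 254, 181, 336, 104 and 81.7 CPM against 735, 859.8, 982 and 409 CPM (log2 fold change 1.97, SE 0.42, adjusted p = 0.0115). Crabp1 gave 3.38 (SE 0.91, adjusted p = 0.0369), and both calls were lost when the length trend described below was taken out. Of 6 genes tested in the list of 18 the other 4 were not called (6.21% of all genes tested were called RFP+), and the list median was 1.34. Cxcl12, the ligand of Cxcr4, had 5.29, 0, 0, 0.458 and 0 CPM against 111, 83.4, 165 and 35.1 CPM (log2 fold change 6.39, SE 1.61, adjusted p = 0.0248), with an adjusted p of 0.108 without G12. Cdon, a Hedgehog co-receptor, and Rfng, a glycosyltransferase acting on Notch, were at 0 in GFP+ wells and at least 9.58- and 3.34-fold higher in RFP+ wells. Ptch1, receptor and target of Hedgehog, was not called (log2 fold change 1.36, SE 0.62, adjusted p = 0.299). In GFP+ wells the semaphorin co-receptor Nrp1 (log2 fold change -4.07, SE 0.34, adjusted p = 2.06e-05), the ephrin receptor Epha7 (log2 fold change -2.86, SE 0.68, adjusted p = 0.0172) and the IGF-binding protein Igfbp5 (log2 fold change -2.37, SE 0.34, adjusted p = 9.26e-04) were higher. Of 13 tested genes for FGF ligands, receptors and feedback, edgeR called 0, with 3 at an unadjusted p under 0.05, and DESeq2 called 1 GFP+ and 3 RFP+ of 26. Over all 10784 genes with an adjusted p, DESeq2 called 591 GFP+ and 1354 RFP+.

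Of 14 mesenchyme genes tested, 2 were called GFP+ (Cdh2 and Sparc) and 1 RFP+ (Cdh11), against 3.88% and 6.21% of all genes tested, and 11 were not called. Cdh2, N-cadherin, which joins cardiomyocytes, had 268, 240.2, 186, 300.0 and 386 CPM against 52.5, 8.96, 12.4 and 25.98 CPM (log2 fold change -3.46, SE 0.61, adjusted p = 0.00422). Cdh11, a mesenchymal cadherin, had 0, 7.72, 0, 1.37 and 0 CPM against 183, 208, 134 and 216 CPM (log2 fold change 6.42, SE 1.25, adjusted p = 0.00832). Acta2, smooth muscle actin, which early cardiomyocytes also express, had 4906, 10442, 3659.8, 4772 and 7117 CPM against 851, 556, 367 and 378 CPM (log2 fold change -3.52, SE 0.36, adjusted p = 8.16e-05). It was 1 of 7 genes called GFP+ among 20 tested in the smooth muscle and contractile cytoskeleton list (3.88% of all genes tested were), with Tagln (-1.63), Vcl (-1.80) and Myl9 (-2.07), and the list median was -0.59. The matrix genes Sparc (log2 fold change -1.53, SE 0.32, adjusted p = 0.0106) and Nid2 (log2 fold change -2.26, SE 0.6, adjusted p = 0.0326) were higher in GFP+ wells, the latter with an adjusted p of 0.129 without G11. Nid2 (GFP+) and Col26a1 (RFP+) were the called members of 17 tested genes for collagens and basement membrane, against 3.88% and 6.21% of all genes tested. Col26a1 was at 0 in GFP+ wells and at least 13.7-fold higher in RFP+ wells. Krt8, a keratin of simple epithelia and early heart, was higher in GFP+ wells (log2 fold change -1.41, SE 0.43, adjusted p = 0.0700), a call lost without any 1 of B12, G11, G12 and H11 (adjusted p up to 0.233).

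Genes of the cytosolic ribosome were higher in RFP+ wells. Of 68 ribosomal protein genes, 66 were tested, 63 were called RFP+ (6.21% of all genes tested were) and none GFP+, and their median was 1.88 against 0.09 for all genes tested. Summed over the list, GFP+ wells held 15334 to 20321 CPM and RFP+ wells 46124 to 68943 CPM, F12 being the lowest of the latter. Rpl5 had 291, 397, 288, 390.2 and 319 CPM against 1072, 1372, 1571 and 1465 CPM (log2 fold change 2.02, SE 0.21, adjusted p = 8.76e-05). Rpl8 (1.73) and Rpl13 (2.39) were alike in size, and Rpl22, Rpl29 and Rpl30 were not called. Many of these genes have near-identical pseudogene copies, and how reads with several matches were counted is not given in the sources used here.

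Fold changes also ran with gene length. Genes outside the ribosome list with exon lengths up to 1 kb had a median of 1.08 (349 genes, 18.6% called RFP+), those of 1 to 2 kb 0.60 (1550), those of 2 to 4 kb 0.01 (3029) and those over 4 kb -0.21 (3291, 3.74% called RFP+). Ribosomal protein genes lay above the others in the same range of length, with medians of 1.96 up to 1 kb (31 genes) and 1.75 at 1 to 2 kb (28). When each library's length trend was taken out, 48 of the 66 were called RFP+ and their median was 1.07, against 0.13 for all genes. The trend was fitted on 3225 genes with reads in every well. Ribosomal protein and respiratory chain genes were not left out of that fit, so it can remove part of their own difference. The calls of Myh7, Bmp10, Gata4, Egfl7, Atp5a1, Rfc3 and Kif23 were lost under this correction too. The part of length in the differences was not tested.

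**Figure D3:**
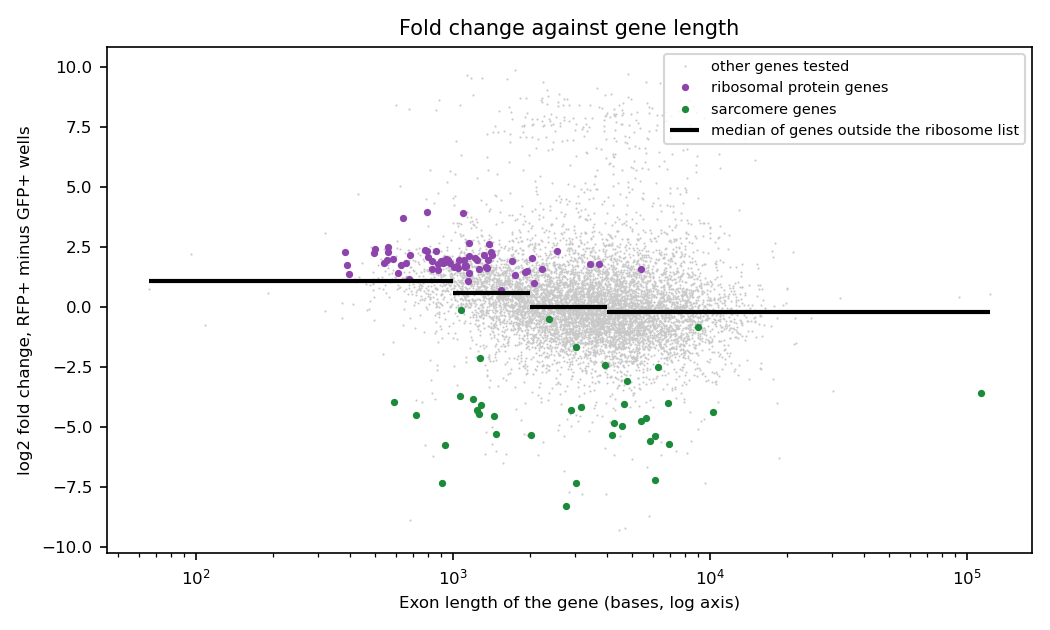
Each point is a gene tested, by exon length in bases (log axis) and log2 fold change (RFP+ minus GFP+ wells), with ribosomal protein genes in purple and sarcomere genes in green. Black bars are medians of the genes outside the ribosome list, which fall from 1.08 up to 1 kb to -0.21 over 4 kb, while sarcomere genes of every length lie below them.

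Calls of respiratory chain genes changed with this correction, which cannot tell length from a difference shared by short genes. Of 58 tested, 15 were called RFP+ (6.21% of all genes tested were) and 2 GFP+ with a median of 0.78, and with the length trend taken out 3 and 2 were called and the median was -0.08. RFP+ calls fell to 4 without G11 or H11 and 8 without G12. Atp5g1 (log2 fold change 1.6, SE 0.28, adjusted p = 0.00382) and Ndufb8 (log2 fold change 1.34, SE 0.24, adjusted p = 0.00479) were higher in RFP+ wells, and the catalytic subunit of succinate dehydrogenase Sdha (log2 fold change -1.34, SE 0.28, adjusted p = 0.0107) in GFP+ wells. Atp5a1, the second GFP+ call, was lost without any 1 of A12, B12, E12, G11, G12 and H11 (adjusted p up to 0.300).

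Glucose uptake and glycolysis gave 6 calls GFP+ and none RFP+ among 17 genes tested (3.88% of all genes tested were called GFP+), with a median of -0.57. Summed levels overlapped, at 17812 to 28248 CPM in GFP+ and 20580 to 23979 CPM in RFP+ wells. Slc2a1, the glucose transporter Glut1, had 1744, 2988, 944, 1959 and 2538 CPM against 539.7, 243, 294 and 229.6 CPM (log2 fold change -2.64, SE 0.36, adjusted p = 7.07e-04). Slc2a3 (-1.67), the lactate exporter Slc16a3 (-2.15) and the phosphofructokinase Pfkp (-3.82) were higher too. Pkm (log2 fold change -0.62, SE 0.15, adjusted p = 0.0174) and Gpi1 (log2 fold change -0.93, SE 0.25, adjusted p = 0.0317) differed less, and these calls were lost without G11 (adjusted p = 0.102) and without any 1 of G11, G12 and H11 (up to 0.132). With the length trend taken out, 6 were called GFP+ and none RFP+. Ldha, the lactate dehydrogenase of glycolytic cells, was not called (log2 fold change 0.1, SE 0.13, adjusted p = 0.875).

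Of 13 chaperone genes tested, 5 were called GFP+ and 3 RFP+, against 3.88% and 6.21% of all genes tested. Among those called GFP+ were Hspa5 (-1.14), Hsp90b1 (-1.13), Calr (-1.36) and Pdia3 (-1.36), which work in the endoplasmic reticulum, whereas Canx, a chaperone of the same compartment, overlapped and was not called (log2 fold change -0.47, SE 0.22, adjusted p = 0.330). Hspe1 (1.48) of the mitochondrial matrix and the cytosolic Hsp90aa1 (0.87) and Hsp90ab1 (0.48) were higher in RFP+ wells. The Hsp90ab1 call was lost without any 1 of B12, C12, D12, E12, F12, G11, G12 and H11 (adjusted p up to 0.198), and that of Hspe1 with the length trend taken out.

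Imprinted genes gave 5 calls GFP+ and none RFP+ in 18 tested (3.88% of all genes tested were called GFP+), with a median of -0.74 and summed levels of 8654 to 10028 CPM against 4166 to 4955 CPM. Grb10, an adaptor that restrains insulin and IGF signalling, had 3756, 2930.2, 1616, 3449 and 2596 CPM against 491, 650.4, 634 and 669 CPM (log2 fold change -2.23, SE 0.24, adjusted p = 1.23e-04). Phlda2 (log2 fold change -3.95, SE 0.78, adjusted p = 0.00879), a growth-limiting gene of the placenta, the IGF2 scavenger receptor Igf2r (log2 fold change -1.59, SE 0.38, adjusted p = 0.0181), the zinc finger factor Plagl1 (log2 fold change -2.32, SE 0.52, adjusted p = 0.0133) and the amino acid transporter Slc38a4 (log2 fold change -1.6, SE 0.33, adjusted p = 0.0106) were the others. Igf2 was not called (log2 fold change -0.74, SE 0.25, adjusted p = 0.110).

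Among cell cycle genes, 3 of 30 tested for DNA replication were called RFP+ against 6.21% of all genes tested, Tyms (log2 fold change 1.45, SE 0.37, adjusted p = 0.0276), Rfc3 (log2 fold change 1.53, SE 0.44, adjusted p = 0.0495) and Mcm6 (log2 fold change 1.0, SE 0.32, adjusted p = 0.0827), with a list median of 0.43. In mitosis Ube2c (log2 fold change 1.67, SE 0.45, adjusted p = 0.0372) was called RFP+ and Kif23 (log2 fold change -1.14, SE 0.37, adjusted p = 0.0901) GFP+ of 30 tested. Over all genes tested the shares were 6.21% RFP+ and 3.88% GFP+. Ccnd2, cyclin D2 (log2 fold change 1.43, SE 0.43, adjusted p = 0.0638), and the pocket protein gene Rbl1 (log2 fold change 6.63, SE 1.55, adjusted p = 0.0162) were called RFP+ of 11 tested in the list for G1 and growth arrest (6.21% of all genes tested were). The calls of Rfc3 were lost without any 1 of G11, G12 and H11 (adjusted p up to 0.212), of Mcm6 without any 1 of A12, B12, E12, F12, G11, G12 and H11 (0.299), of Ube2c without any 1 of G11 and H11 (0.131), of Kif23 without any 1 of A12, D12, E12, F12, G11, G12 and H11 (0.278) and of Ccnd2 without any 1 of A12, D12, F12, G11 and H11 (0.187). Of 11 p53 targets tested edgeR called 0, with 0 at an unadjusted p under 0.05, and DESeq2 called 2 RFP+ of 20. Over all 10784 genes with an adjusted p, DESeq2 called 1354 RFP+. Only 1 DNA replication gene was called without G11 or G12.

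**Figure D4:**
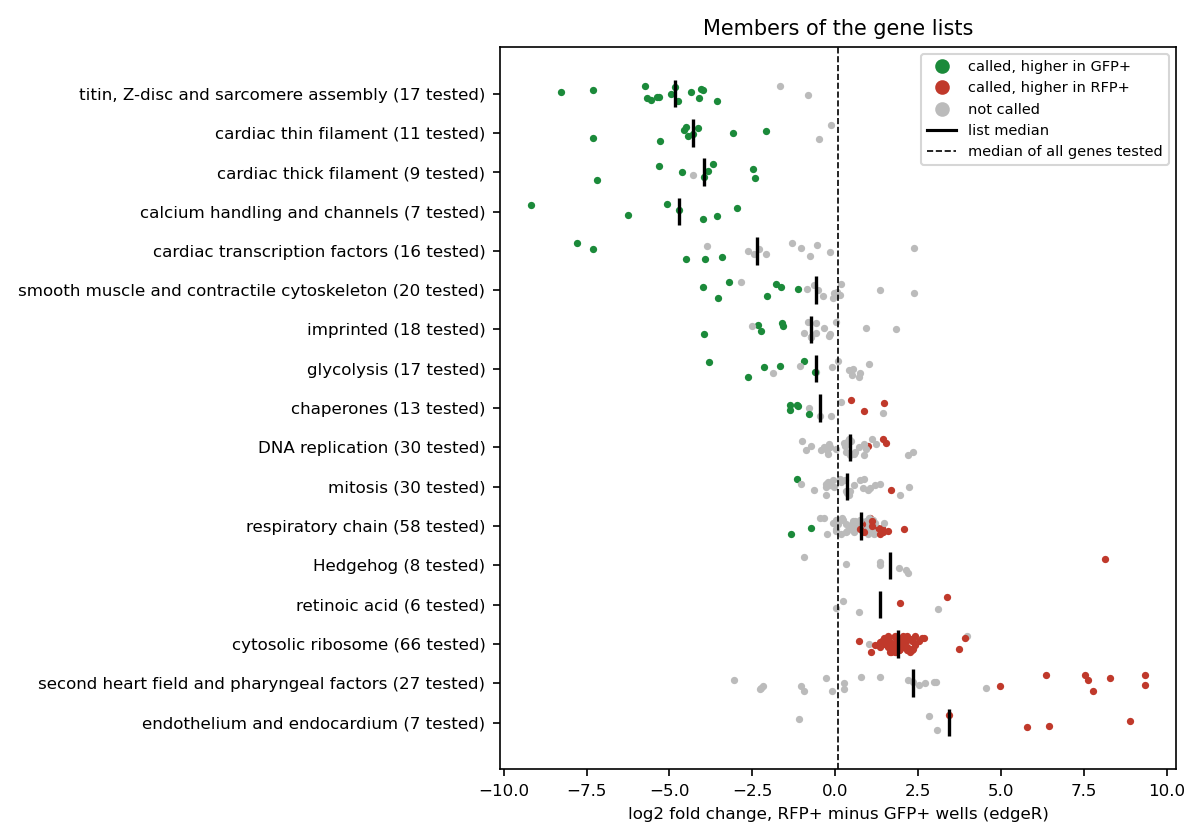
Points are the tested members of 17 gene lists at their log2 fold change (RFP+ minus GFP+ wells; green called GFP+, red called RFP+, grey not called), with black bars at list medians and a dashed line at the median of all genes tested, 0.09. Fitted values of genes without reads in 1 population depend on the fit. Sarcomere lists lie at medians of -4.82 to -3.95 and ribosomal protein genes at 1.88.

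The largest called changes outside these lists were found by ranking genes with no overlap and a mean of at least 50 CPM in the higher population. On the GFP+ side this added Thbs4, a matricellular thrombospondin (log2 fold change -7.8, SE 1.33, adjusted p = 0.00327), Ppp1r3c, a glycogen-targeting phosphatase subunit (log2 fold change -6.81, SE 1.39, adjusted p = 0.0102), and Rrad, a small GTPase that restrains calcium channels (log2 fold change -6.49, SE 1.46, adjusted p = 0.0138), to Hspb7, Tnni3, Actn2, Myh6, Tbx20 and Tbx5. Txlnb completed the 10, with 14.8, 21.02, 2.64, 233 and 7.83 CPM in GFP+ wells and no read in an RFP+ well. It was at least 25.3-fold higher in GFP+ wells, but 5.26-fold without D12, which held most of its reads, a call lost without any 1 of F12, G11, G12 and H11 (adjusted p up to 0.121). On the RFP+ side all 10 were at 0 in every GFP+ well, and a ranking by fitted fold change favours such genes. Their bounds cover counting error only. Dusp14, a MAP kinase phosphatase, was at least 31.6-fold higher, Ankrd6, a cytoplasmic relative of Drosophila diego in planar polarity, 27.9-fold, and Pdlim4, an actin-binding LIM protein, 25.01-fold. Ramp2, the adrenomedullin co-receptor, Fam212a, Kti12 and Bloc1s5 followed at 24.7-, 24.8-, 24- and 21.6-fold, and Nkx2-6 and Ebf2, described above, were among the 10 too.

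No member was called in 13 of the 49 lists, 4 of which had no tested member. Among them were nascent mesoderm, epicardium, BMP receptors and Smads, and pluripotency genes, where DESeq2 called 0 members too and 1 gene, of the nascent mesoderm list, reached an unadjusted p under 0.05 in edgeR. In the wells of plate column 12 alone, with 5 GFP+ and 2 RFP+ wells, 301 of 9360 genes tested were called. Over all genes GFP+ calls thus went from 330 to 85 and RFP+ calls from 528 to 216. In this fit the lists for glycolysis and for imprinted genes gave 2 GFP+ calls each, the ribosome 45 RFP+ calls, and the respiratory chain, DNA replication and mitosis gave 0.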

How the data were processed

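RNA from 10 cells per well was amplified and sequenced, and the deposited table gives counts per gene, without normalization, made by the authors. The submitters' processing notes name Trimmomatic 0.36, HISAT2 2.0.4, featureCounts 1.5.2 (Subread), DESeq2 and the builds mm10 and GRCm38, and the paper gives trimming at a minimum quality of 35 and length of 36. Strand setting and molecular identifiers are not given in the sources used here, so reads of overlapping and antisense genes cannot be told apart. Groups came from the labels. Members and gene lists were chosen with earlier results of these data known.

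Tests ran under R 4.3.3, the main one in edgeR 4.0.16 (TMM, filterByExpr with minimum count 10 and total 15, quasi-likelihood F-test, Benjamini-Hochberg adjustment over 8503 genes). SE is the size of the log2 fold change over the square root of F. Exact permutation tests used log2(CPM + 2) for Hcn4 and Tbx1 and untransformed numbers of genes per well for detected genes. Exon lengths came from GENCODE M21, and promoters from RefSeq, matched by symbol. DESeq2 1.42.0 and limma 3.58.1 were alternatives. Named genes were the 6 markers, the 10 most changed in each direction (no overlap, mean of 50 CPM) and, per list, up to 4 called in each direction by adjusted p and 2 not called by level. Isl1, Gata4, Ebf1, Six4, Gpi1, Pkm, Canx, Rpl30, Epcam, Cldn6, Hba-x and Nkx2-5 were named after their values were seen. Counts were also simulated with a single fitted spread per gene, shared by both populations. In a fit of 7265 genes, 14.0% of the 86 genes changed by a log2 of 2 and 40.4% of the 89 changed by 4 were called. The real populations differed in spread, so these shares need not hold for them. Totals per well limit only counting error. A few genes that met these rules are not reported here.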

Additional observations from a re-analysis of the deposited data

Results flagged for a closer look

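In 106 groups of wells checked on the log2(CPM + 2) scale (totals on log2, detected genes on counts), 13 held a well whose gap to its neighbour took most of the group's range. Chance flags about 1 in 20 groups, and a group in which 1 well alone has reads always qualifies. Of that kind were Hcn4 in H11 (1.40 CPM) and Bmp10 in G11 (7.58), Kcnj5 in F12 (0.719) and Nppa in G12 (0.827) among RFP+ wells, and Six2 in A12 (2.11) and Hba-x in B12 (0.429) among GFP+ wells. Cxcl12 had 5.29 CPM in A12 and less than 1 CPM in the other GFP+ wells. In GFP+ well C12, Tnni3 was low at 39.7 CPM and Acta1 at 1.32 CPM.

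RFP+ well F12 stood apart by Hba-x (385 CPM), by the summed blood list (1143 CPM) and by the lowest sum of ribosomal protein genes (46124 CPM). RFP+ well H11 stood apart by the highest sum of endothelial and endocardial genes (834 CPM). Without F12, 61 of the 66 tested ribosomal protein genes were called RFP+.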

How the results depend on the processing

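Call counts varied with the method. Against 858 calls (330 GFP+, 528 RFP+), DESeq2 gave 1945 (591, 1354), limma voom with quality weights 2481 (464, 2017), no filter 2000 (362, 1638), the joint fit over 4 groups 7115 (2346, 4769), plate column 12 alone 301 (85, 216) and genes counted in every well 873 (526, 347). Leaving out 1 well gave 613 to 1044 calls, 211 to 402 GFP+ and 399 to 728 RFP+. DESeq2's size factors moved the median of all genes from 0.09 to -0.04 (55.1% of calls RFP+ against 61.5%), and voom's median was 1.40. The spread in the joint fit comes mostly from the 84 spheroid wells. The cause of the other shifts was not tested. Taking out the length trend, an alternative chosen after seeing the data, gave 713 calls, 670 of them shared with the same direction, and 9 of the 858 genes changed sign.

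Of 112 called genes followed across the alternatives, 70 lost their call in 1 or more, 42 in none, and 0 changed sign. Genes not called did: Isl1 (-0.09) gave 0.47 with voom and 0.0053 without filter, and ran from -0.31 to 0.19 as 1 well was left out. Gja1 (-0.12) gave 0.33 in column 12, 0.0892 with the length trend taken out, and -0.40 to 0.11 as 1 well was left out. No paired analysis was possible because wells carry plate positions and no shared replicate numbers. GFP+ wells filled rows A to E and RFP+ wells rows F to H, so population and plate row cannot be told apart. Precision is limited by 10 cells per well, and intervals from counts would cover counting error only.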
